A study of Mus musculus with 6 samples.

Results

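The 10 genes Cldn5, Ocln, Tjp1, Cdh5, Pecam1, Slc2a1, Mfsd2a, Abcb1a, Flt1 and Tek are genes of endothelial cells and of the blood-brain barrier. They were taken by name, by matching gene symbols to Ensembl identifiers and with earlier results of these data known, and they are 10 of the 35275 genes in the count table. Sequencing covered poly(A) RNA of whole cord from 3 Sox2 cKO and 3 control (Ctrl) mice, adults on a C57BL/6 background, to learn what changes when astrocytes lose the transcription factor gene Sox2. Sox2 cKO mice carried mGfap-Cre:Sox2fl/fl, in which Cre recombinase under the mouse Gfap promoter removes the floxed Sox2 alleles. Deletion is thus limited to cells in which that promoter is or was active, chiefly astrocytes. The genotype of the Ctrl mice is stated differently by each source: mGfap-Cre:Sox2+/+ in the sample labels, Sox2fl/fl littermates in the methods, and either kind in the series design. Age is 90 days in the labels and 80 days in the design. The methods give 2 females and 1 male in each group, without saying which library came from which. Even-numbered libraries (2, 4, 6) were taken as Ctrl and odd-numbered ones (1, 3, 5) as Sox2 cKO. The study numbers the mice of a protein blot in the same way.

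Endothelial cells line the capillaries of brain and spinal cord and form the barrier between blood and nervous tissue. Tight and adherens junctions seal the gaps between these cells, a low rate of vesicle transport limits passage through them, and carriers bring in nutrients while pumps return drugs to the blood. The barrier is wrapped by pericytes and astrocyte endfeet, and Wnt ligands, vascular endothelial growth factor (VEGF) and angiopoietins from neighbouring cells act on receptors of the endothelium.

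Reads counted on genes numbered 22444930, 25015776 and 21983098 in Ctrl libraries 2, 4 and 6. They numbered 21507911, 28392184 and 26166638 in Sox2 cKO libraries 1, 3 and 5, so the groups overlapped in depth. Levels of a gene are given as counts scaled to library size by TMM (CPM) and were compared between groups with edgeR, with DESeq2 as a further test. Their p-values set the difference between groups against the spread between mice. With all libraries they were adjusted over 16137 genes tested in edgeR and over 15425 in DESeq2. A gene was called when its adjusted p was below 0.05. Sox2 (ENSMUSG00000074637; chromosome 3 of mm10, 34650405 to 34652461) was read first, as the gene that separates the groups. Its level was 19.9, 14.8 and 29.5 CPM in Ctrl libraries 2, 4 and 6 and 3.16, 2.69 and 2.98 CPM in Sox2 cKO libraries 1, 3 and 5. Every Sox2 cKO library lay below every Ctrl library, and the log2 fold change of Sox2 came to -2.86 (with a standard error, SE, of 0.24, edgeR adjusted p = 0.000956).

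Libraries differed within the groups as well. Sox2 cKO 1 held the highest CPM of the 6 libraries for 27.2% of tested genes and the lowest for 27.4%, followed by Ctrl 6 (22% and 24.2%) and Ctrl 4 (19.4% and 20.4%). Ctrl 2 differed less from Sox2 cKO 5 than from Ctrl 4, with a chi-square statistic per degree of freedom of 10.8 against 24.9. Levels also followed gene length: across 16039 genes, which are not independent replicates, Spearman's rho between a library's centred log2 level and length was 0.11, 0.46 and 0.38 in Ctrl 2, 4 and 6. In Sox2 cKO 1, 3 and 5 it was -0.48, -0.32 and -0.38. Leaving out 1 library changed how many of all genes edgeR called, to 36.9%, 0.159% and 6.54% without Ctrl 2, 4 and 6 and to 0.0485%, 8.31% and 16.3% without Sox2 cKO 1, 3 and 5, shares beside which all edgeR counts without a library stand. DESeq2 called 5607 of 15784, 1974 of 13828 and 2257 of 13848 genes without Ctrl 2, 4 and 6. It called 2342 of 13370, 2673 of 14294 and 3225 of 14754 without Sox2 cKO 1, 3 and 5. An unadjusted edgeR p-value under 0.05 was held by 6391 of 16137 genes with all libraries. Those numbers were 4758 of 16373, 5035 of 16552, 4945 of 16482 and 5306 of 16345 without Ctrl 4, Ctrl 6, Sox2 cKO 1 and Sox2 cKO 3. Some results are therefore also given with each library corrected for its own length trend, or without Ctrl 2 or Sox2 cKO 1. With the length correction edgeR called 13.0% of all genes, 5.35% lower and 7.62% higher, and 5246 of 16137 had an unadjusted p-value under 0.05. All counts with that correction stand beside these shares. The part of length, RNA quality or dissection in these differences was not tested.

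Barrier and endothelial genes were detected in every library, and all 10 passed the filter on low counts. Tjp1, a junction scaffold gene, was lower in Sox2 cKO cord and was the 1 gene of the 10 that edgeR called with all 6 libraries and the filter on low counts, against 24.6% of all genes tested. Junction genes known mainly from endothelium, Cldn5, Cdh5 and Pecam1, had positive fold changes, and the transport genes Slc2a1, Mfsd2a and Abcb1a and the receptor genes Flt1 and Tek had negative ones, none of them called. Cldn5 and Pecam1 were highest by far in Sox2 cKO 1, and Slc2a1, Abcb1a, Flt1 and Tek were lowest in Sox2 cKO 3. Fewer cells of a type and less RNA per cell cannot be told apart in RNA of whole tissue.

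Compared as FPKM, which divides by gene length, Slc2a1 had the highest level of the 10 genes, with a mean of 64.2 ± 5.53 FPKM (SD, n = 6 libraries). It was followed by Tjp1 at 19.6 ± 3.45, Mfsd2a at 18.8 ± 1.65, Cldn5 at 15.2 ± 8.61, Flt1 at 10.8 ± 1.64 and Abcb1a at 9.57 ± 1.17 FPKM. Pecam1 at 5.96 ± 1.51, Cdh5 at 3.64 ± 0.533, Tek at 3.23 ± 0.382 and Ocln at 2.48 ± 0.320 FPKM had lower levels. Neighbours in this order from Tjp1 to Abcb1a, and Cdh5 and Tek, lay closer together than 1 SD of the more variable gene. Tjp1 exceeded Mfsd2a in all 3 Ctrl libraries (means 22.6 and 18.9 FPKM) and in no Sox2 cKO library (16.6 and 18.7), where Cldn5 had a mean of 19.4 ± 11.6 FPKM (SD, n = 3). Mfsd2a exceeded Cldn5 in 5, and Cldn5 exceeded Flt1 in 4. The order thus has a clear top, Slc2a1. Other cells such as astrocytes can also make glucose transporter RNA, and their part in the level of Slc2a1 was not tested.

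**Figure D1:**
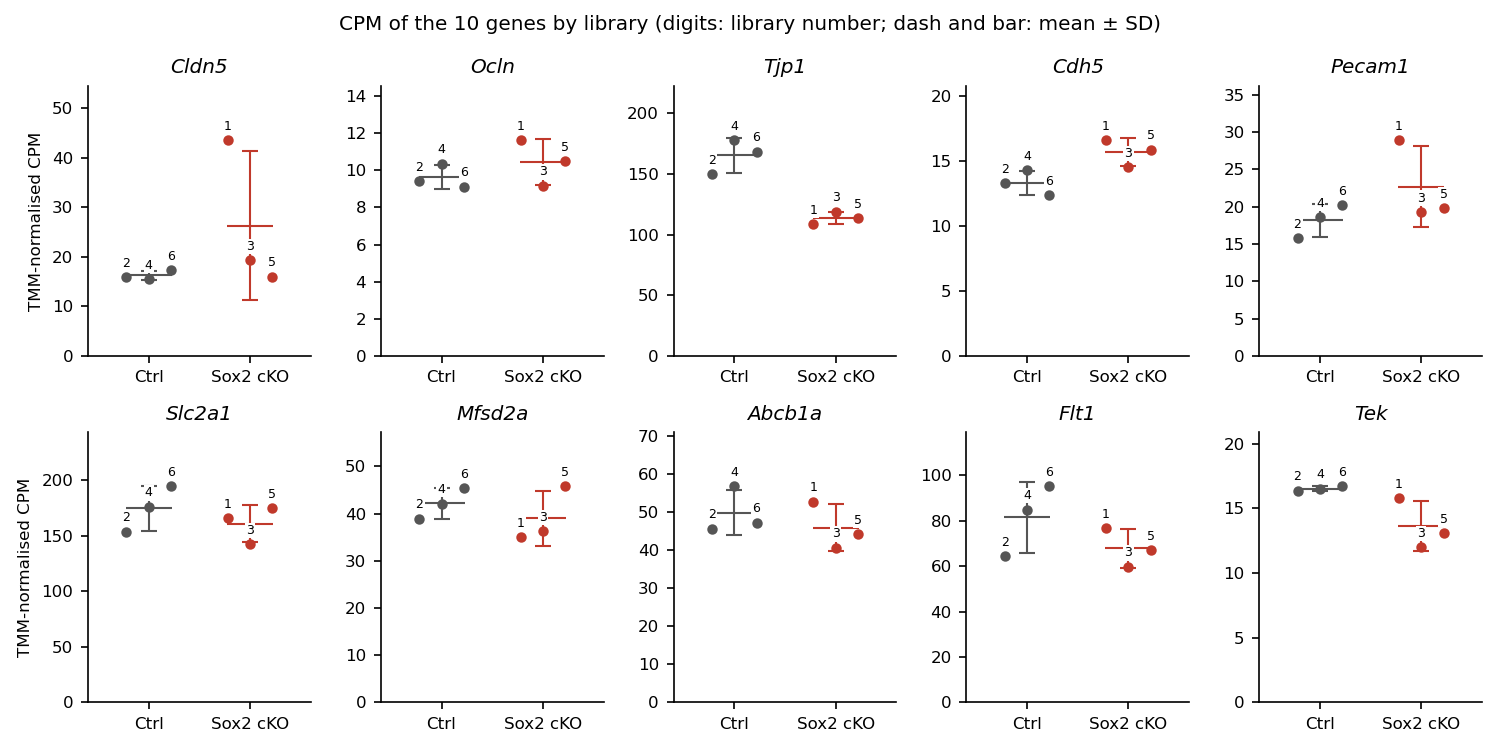
Level of each of the 10 genes in CPM (vertical axis, from 0) in the 3 Ctrl and 3 Sox2 cKO libraries; points are libraries with their numbers, and dashes and bars are the mean and SD of 3. Tjp1 spans 150 to 178 CPM in Ctrl and 108 to 119 CPM in Sox2 cKO, and Cldn5 reaches 43.6 CPM in Sox2 cKO 1.

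Tight junction genes did not move as a block: the scaffold gene Tjp1 was lower in all Sox2 cKO libraries, the claudin gene Cldn5 was high in 1 of them, and the occludin gene Ocln overlapped between groups. Tjp1 (ENSMUSG00000030516; chromosome 7, 65296165 to 65527781) encodes a scaffold that ties tight junction proteins to actin, and many cell types besides endothelium make it. The 300 bases around the start of Tjp1, at chr7:65371195-65371494 on the minus strand, are shown because Tjp1 was the member called, and those of Cldn5, at chr16:18776597-18776896 on the plus strand, because the 2 junction genes had fold changes of opposite sign. Both run from 250 bases before to 50 bases after the start in GRCm38.p6 as given by RefSeq, whose start of Tjp1 lies inside the gene's span in GENCODE. RefSeq promoters matched 8 of the 10 genes, all but Cdh5 and Pecam1, with 9 entries. They were searched on both strands for the SOX letters ACAAAG (in 18.7% of 32851 promoters) and ACAATG (12.6%), the TCF/LEF letters ATCAAAG (3.73%) and the ETS letters CCGGAAG (8.86%). Neither the Tjp1 nor the Cldn5 window holds any of these, so no letters are in capitals.
Tjp1: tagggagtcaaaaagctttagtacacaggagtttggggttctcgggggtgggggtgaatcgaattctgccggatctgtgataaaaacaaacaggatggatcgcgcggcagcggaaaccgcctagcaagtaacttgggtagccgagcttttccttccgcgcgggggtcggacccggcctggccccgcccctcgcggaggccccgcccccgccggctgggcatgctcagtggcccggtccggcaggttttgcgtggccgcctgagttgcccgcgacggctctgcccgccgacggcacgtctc
Cldn5: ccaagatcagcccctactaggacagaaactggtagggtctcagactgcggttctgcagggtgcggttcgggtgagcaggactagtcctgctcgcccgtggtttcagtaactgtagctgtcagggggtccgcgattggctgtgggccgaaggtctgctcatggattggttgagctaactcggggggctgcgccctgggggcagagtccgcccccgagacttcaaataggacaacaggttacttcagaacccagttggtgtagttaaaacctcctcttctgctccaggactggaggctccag

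Tjp1 was measured at 150, 178 and 168 CPM in Ctrl libraries 2, 4 and 6 and at 108, 119 and 113 CPM in Sox2 cKO libraries 1, 3 and 5. All Sox2 cKO libraries lay below all Ctrl libraries, and the spread within each group was smaller than the gap. The mean was 165 ± 14.3 CPM (SD, n = 3) in Ctrl and 114 ± 5.19 CPM (SD, n = 3) in Sox2 cKO, a log2 fold change of -0.54 (SE 0.09, edgeR adjusted p = 0.0125). Tjp1 RNA is long, 7049 bases, and with the length correction the log2 fold change was -0.24 (adjusted p = 0.0351). Over the 23 alternatives it lay between -0.62 and -0.24, with adjusted p between 7.01e-12 and 0.0656. The call was lost in edgeR without Ctrl 4 (adjusted p = 0.065) or without Sox2 cKO 1 (adjusted p = 0.0656), while DESeq2 called Tjp1 without either library (adjusted p = 0.000846 and 0.000252).

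Cldn5 (ENSMUSG00000041378; chromosome 16, 18776847 to 18778262) encodes the main claudin of the tight junction strands of barrier endothelium. Its level was 15.9, 15.5 and 17.3 CPM in Ctrl libraries 2, 4 and 6 and 43.6, 19.3 and 16.0 CPM in Sox2 cKO libraries 1, 3 and 5. Sox2 cKO 1 stood far above the other 5 libraries, while Sox2 cKO 5 lay among the Ctrl libraries, so the groups overlapped. The mean was 16.3 ± 0.939 CPM (SD, n = 3) in Ctrl and 26.3 ± 15.1 CPM (SD, n = 3) in Sox2 cKO, with a log2 fold change of 0.69 (SE 0.31, edgeR adjusted p = 0.122). Without Sox2 cKO 1 the log2 fold change of Cldn5 was 0.12. Without Sox2 cKO 5 it was 0.94 and was called (adjusted p = 0.0413 in edgeR and 0.00259 in DESeq2), as it was with no filter on low counts (adjusted p = 0.0372). Adjusted p lay between 0.00259 and 0.75 over the 23 alternatives.

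Ocln (ENSMUSG00000021638; chromosome 13, 100496507 to 100552718) encodes occludin, a membrane protein of tight junctions. Levels of Ocln were 9.42, 10.4 and 9.12 CPM in Ctrl 2, 4 and 6 and 11.6, 9.18 and 10.5 CPM in Sox2 cKO 1, 3 and 5. The groups overlapped, and the log2 fold change was 0.11 (SE 0.13, edgeR adjusted p = 0.556) with all libraries and 0.0303 without Sox2 cKO 1. Cdh5 (ENSMUSG00000031871; chromosome 8, 104101625 to 104144511) encodes VE-cadherin, which joins endothelial cells at adherens junctions. Cdh5 levels were 13.3, 14.3 and 12.4 CPM in Ctrl 2, 4 and 6 and 16.6, 14.5 and 15.9 CPM in Sox2 cKO 1, 3 and 5. All Sox2 cKO libraries lay above all Ctrl libraries, by a margin of little size between Ctrl 4 and Sox2 cKO 3, with a log2 fold change of 0.23 (SE 0.11, edgeR adjusted p = 0.139). Pecam1 (ENSMUSG00000020717; chromosome 11, 106654217 to 106750628) encodes an adhesion protein at endothelial contacts that platelets and leukocytes also carry. Pecam1 was measured at 15.8, 18.6 and 20.2 CPM in Ctrl 2, 4 and 6 and at 28.9, 19.3 and 19.8 CPM in Sox2 cKO 1, 3 and 5. Sox2 cKO 1 was the high library of Pecam1, and the other 2 lay within the Ctrl range. The log2 fold change of Pecam1 was 0.32 (SE 0.16, edgeR adjusted p = 0.174) with all libraries and 0.10 without Sox2 cKO 1. Vessels were flushed with PBS through the heart before tissue was taken. Platelet genes, whose part in the level of Pecam1 was not tested, summed to 6.01, 4.82 and 3.43 CPM in Ctrl 2, 4 and 6 and to 8.52, 6.62 and 5.55 CPM in Sox2 cKO 1, 3 and 5.

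Transport genes of the barrier differed little between the groups, each by less than the spread between libraries of the more variable group. Slc2a1 (ENSMUSG00000028645; chromosome 4, 119108711 to 119137983) encodes the glucose transporter of barrier endothelium. Its level was 154, 176 and 194 CPM in Ctrl 2, 4 and 6 and 166, 142 and 175 CPM in Sox2 cKO 1, 3 and 5. The groups overlapped, with means of 175 ± 20.4 and 161 ± 16.7 CPM (SD, n = 3 each) and a log2 fold change of -0.12 (SE 0.11, edgeR adjusted p = 0.447). Slc2a1 shares 105 exon bases with the antisense gene Gm12868, and since the strand setting of the counting is not stated, which of them such reads were given to is uncertain. Mfsd2a (ENSMUSG00000028655; chromosome 4, 122946850 to 122961188) encodes a carrier of lysophosphatidylcholine with docosahexaenoic acid that also keeps vesicle transport low. Mfsd2a levels were 38.9, 42.1 and 45.4 CPM in Ctrl 2, 4 and 6 and 35.0, 36.3 and 45.7 CPM in Sox2 cKO 1, 3 and 5. Sox2 cKO 5 was the highest of all 6 libraries and Sox2 cKO 1 the lowest, and the log2 fold change was -0.11 (SE 0.11, edgeR adjusted p = 0.495). Over the 23 alternatives, none of which called either gene, log2 fold changes lay between -0.23 and -0.0178 for Slc2a1 and between -0.26 and -0.0194 for Mfsd2a.

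Abcb1a (ENSMUSG00000040584; chromosome 5, 8660077 to 8748575) encodes P-glycoprotein, the pump that returns many drugs from endothelium to blood. Levels of Abcb1a were 45.6, 56.7 and 47.3 CPM in Ctrl 2, 4 and 6 and 52.8, 40.7 and 44.2 CPM in Sox2 cKO 1, 3 and 5. Sox2 cKO 1 lay among the Ctrl libraries and the other 2 Sox2 cKO libraries below them. The log2 fold change was -0.12 (SE 0.12, edgeR adjusted p = 0.468), and its direction turned with the length correction, to 0.0601. In edgeR it was -0.0184 without Ctrl 4, -0.0410 without Sox2 cKO 3 and -0.2322 without Sox2 cKO 1, not called in any of these fits. With both Ctrl 2 and Sox2 cKO 1 left out, a choice made after seeing the data, DESeq2 called Abcb1a lower (log2 fold change -0.30, adjusted p = 0.0458), edgeR did not (-0.29, adjusted p = 0.0534), and adjusted p ran up to 0.937 over the alternatives. The closely related pump gene Abcb1b had 4.40, 3.49 and 4.15 CPM in Ctrl 2, 4 and 6 and 5.09, 4.26 and 3.70 CPM in Sox2 cKO 1, 3 and 5. Reads that match both copies make the split between Abcb1a and Abcb1b uncertain, and Abcb1a also shares 553 exon bases with a gene on the opposite strand.

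Receptor genes of the endothelium, Flt1 and Tek, had lower means in Sox2 cKO cord and were lowest in Sox2 cKO 3. Flt1 (ENSMUSG00000029648; chromosome 5, 147561604 to 147726011) encodes a VEGF receptor that also exists as a soluble form which binds VEGF away from the cell, and counts per gene do not separate the forms. Tek (ENSMUSG00000006386; chromosome 4, 94739289 to 94874976) encodes Tie2, the receptor of angiopoietins. The window around the start of Tek, at chr4:94739039-94739338 on the plus strand of GRCm38.p6 from RefSeq, is shown because Tek did not overlap between groups and holds letters of the search. Capitals mark ACAAAG, 26 bases before the start; Abcb1a, with 2 such matches, was the other member with any, in a window (chr5:8566841-8567140) that lies before the span of the gene in GENCODE.
Tek: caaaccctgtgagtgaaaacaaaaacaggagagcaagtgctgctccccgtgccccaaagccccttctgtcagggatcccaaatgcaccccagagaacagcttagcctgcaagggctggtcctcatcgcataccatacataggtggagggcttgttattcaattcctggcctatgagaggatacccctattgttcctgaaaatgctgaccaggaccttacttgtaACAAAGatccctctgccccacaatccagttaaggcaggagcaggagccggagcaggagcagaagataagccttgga

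Flt1 was measured at 64.4, 84.9 and 95.0 CPM in Ctrl 2, 4 and 6 and at 76.7, 59.7 and 67.0 CPM in Sox2 cKO 1, 3 and 5. Ctrl 2 lay among the Sox2 cKO libraries, so the groups overlapped, while Ctrl 4 and Ctrl 6 were above all of them. The mean was 81.4 ± 15.6 CPM (SD, n = 3) in Ctrl and 67.8 ± 8.52 CPM (SD, n = 3) in Sox2 cKO, with a log2 fold change of -0.26 (SE 0.14, edgeR adjusted p = 0.183). Without Ctrl 2, Flt1 was called lower by edgeR (log2 fold change -0.41, adjusted p = 0.0149) and by DESeq2 (adjusted p = 0.00117). The edgeR value was smaller without Ctrl 6 (-0.1387, adjusted p = 0.528) and without Sox2 cKO 3 (-0.1805, adjusted p = 0.444). Without both Ctrl 2 and Sox2 cKO 1 the log2 fold change in edgeR was -0.50 (adjusted p = 0.00261). With the length correction it turned to 0.0486 (adjusted p = 0.821), the RNA being 6895 bases long, and adjusted p lay between 7.43e-06 and 0.821 over the 23 alternatives.

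Tek levels were 16.4, 16.5 and 16.7 CPM in Ctrl 2, 4 and 6 and 15.8, 12.01 and 13.1 CPM in Sox2 cKO 1, 3 and 5. Ctrl libraries were nearly equal, and all Sox2 cKO libraries lay below them, Sox2 cKO 1 by the smallest margin. The mean was 16.5 ± 0.164 CPM (SD, n = 3) in Ctrl and 13.6 ± 1.96 CPM (SD, n = 3) in Sox2 cKO, with a log2 fold change of -0.28 (SE 0.12, edgeR adjusted p = 0.109) and -0.13 after the length correction. Tek was called lower by DESeq2 without Sox2 cKO 1 (log2 fold change -0.41, adjusted p = 0.0445) and by edgeR without both Ctrl 2 and Sox2 cKO 1 (-0.40, adjusted p = 0.0223). Its adjusted p lay between 0.0223 and 0.497 over the alternatives.

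**Figure D2:**
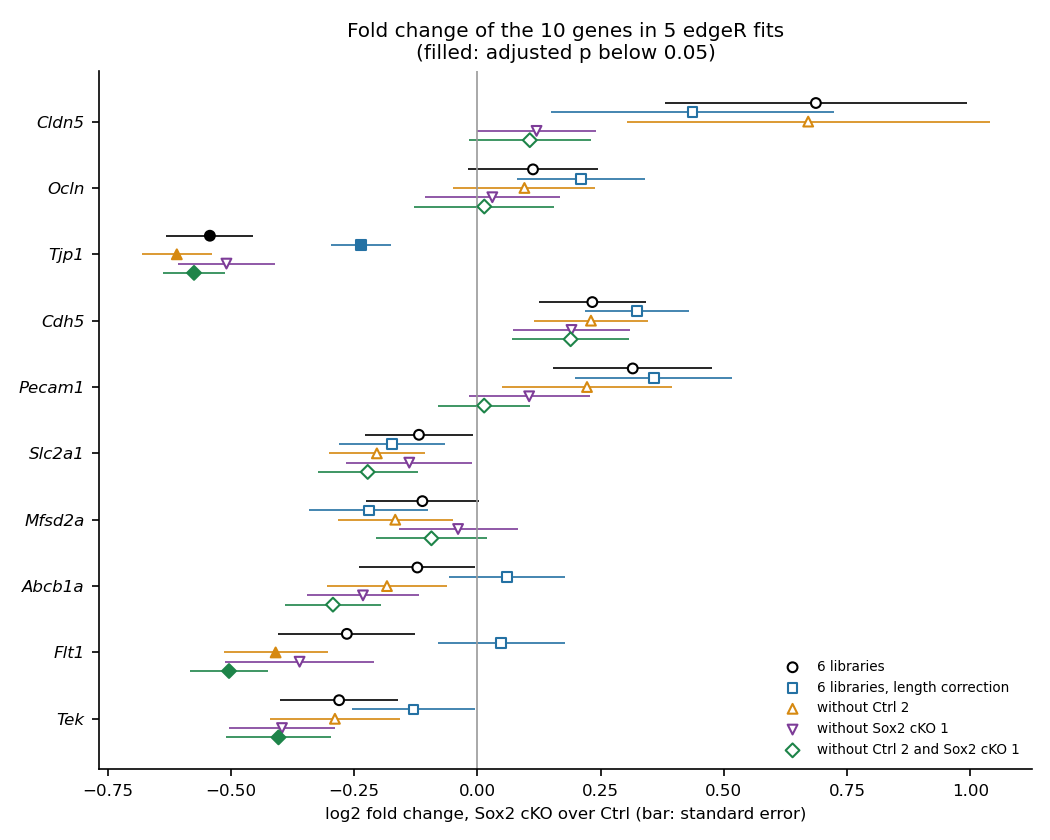
Log2 fold change of Sox2 cKO over Ctrl (horizontal axis) with its standard error for each of the 10 genes in 5 edgeR fits; filled points were called. Tjp1 is below 0 in all 5, Flt1 lies at -0.26 with 6 libraries, at -0.50 without Ctrl 2 and Sox2 cKO 1 and at 0.0486 with the length correction, and Cldn5 drops from 0.69 to 0.12 without Sox2 cKO 1.

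Read side by side, the 10 genes split by direction, 6 with a negative and 4 with a positive log2 fold change, with a median of -0.12 against 0.0179 over all genes tested. Levels of Tjp1, Tek and Cdh5, 3 of 10, did not overlap between groups, against 44.7% of all genes tested. DESeq2 called 1 of the 10, Tjp1, against 28.1% of the genes it tested. With the length correction 1 of the 10 was called, again Tjp1, against 13.0%, and the median was 0.0543. Sox2 cKO 1 was the highest library for 4 of the 10, Cldn5, Ocln, Cdh5 and Pecam1, against 27.2% of all genes, and Sox2 cKO 3 was the lowest for 4, against 11.3%. Without Ctrl 2, edgeR called 2 of the 10, Tjp1 and Flt1, both lower, against 36.9% of genes. Without Sox2 cKO 1 edgeR called 0, against 0.0485% of genes. There 3 of the 10 had an unadjusted p-value under 0.05, against 4945 of 16482 genes, and DESeq2 called 2, against 2342 of 13370. Without Ctrl 4 edgeR also called 0, against 0.159% of genes. There 2 of the 10 had an unadjusted p-value under 0.05, against 4758 of 16373 genes, and DESeq2 called 1, against 1974 of 13828. Without Sox2 cKO 5 edgeR called 2, Tjp1 and Cldn5, against 16.3%. Leaving out both Ctrl 2 and Sox2 cKO 1 gave 3 calls in edgeR, Tjp1, Flt1 and Tek, all lower, against 34.4% of genes.

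**Figure D3:**
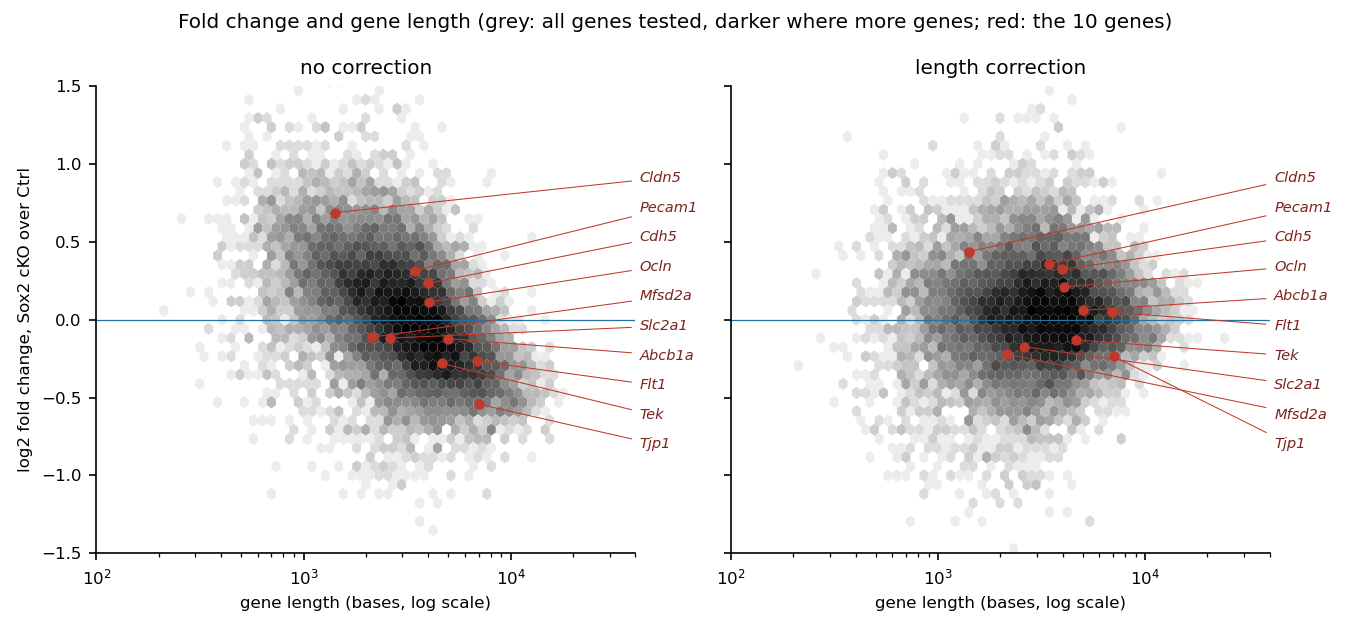
Log2 fold change (vertical axis) against gene length in bases (horizontal log axis) without and with the length correction; grey marks all genes tested and red the 10 genes. Tjp1 and Flt1, with 7049 and 6895 bases, move from -0.54 to -0.24 and from -0.26 to 0.0486, while Cldn5, with 1414 bases, moves from 0.69 to 0.44.

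Endothelial genes beyond the 10 showed how far Sox2 cKO 1 stood from the rest. Of 26 other genes listed here as endothelial, 23 were highest in Sox2 cKO 1, and the other 3 were highest in Ctrl 6. Their summed level was 277, 283 and 282 CPM in Ctrl 2, 4 and 6 and 460, 289 and 298 CPM in Sox2 cKO 1, 3 and 5, and none was at 0 in all libraries. The most abundant, Ly6c1, and Ly6a encode small surface proteins, and which cells of the cord made their RNA was not tested. Ly6c1 was measured at 31.8, 19.9 and 21.6 CPM in Ctrl 2, 4 and 6 and at 64.7, 47.4 and 44.3 CPM in Sox2 cKO 1, 3 and 5, with a log2 fold change of 1.09 (edgeR adjusted p = 0.0125). Ly6a had 17.3, 11.6 and 9.94 CPM against 54.5, 30.8 and 26.7 CPM, with a log2 fold change of 1.52 (adjusted p = 0.0125). Both were above every Ctrl library in all 3 Sox2 cKO libraries, not in Sox2 cKO 1 alone. Egfl7, which encodes a protein that endothelium secretes, was at 6.82, 6.78 and 7.0 CPM against 19.0, 9.79 and 8.76 CPM (log2 fold change 0.86, edgeR adjusted p = 0.0375). Emcn, an endothelial sialomucin gene named after its values were seen, was at 6.37, 5.20 and 5.02 CPM against 11.2, 8.60 and 7.82 CPM (log2 fold change 0.73, adjusted p = 0.0181). These 4 were the calls among the 26 genes, all higher, against 24.6% of all genes called in either direction. The list had a median log2 fold change of 0.19, against 0.0179 over all genes tested. DESeq2 called 6 higher and 1 lower, and with the length correction edgeR called 3, all but Egfl7. Without Sox2 cKO 1 the median was 0.00, edgeR called 0 (8 with an unadjusted p-value under 0.05) and DESeq2 called 2 higher and 2 lower. Over all genes there, 4945 of 16482 had such an unadjusted p-value and DESeq2 called 2342 of 13370. Without Ctrl 4 edgeR called 0 (6 with an unadjusted p-value under 0.05) and DESeq2 called 4, and without Ctrl 6 edgeR called 2. Egfl7 was at 0.44 without Sox2 cKO 1 and was not called by edgeR without Ctrl 2, Ctrl 4, Ctrl 6, Sox2 cKO 1 or Sox2 cKO 3. The part of endothelial content in the levels of the 10 genes was not tested.

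**Figure D4:**
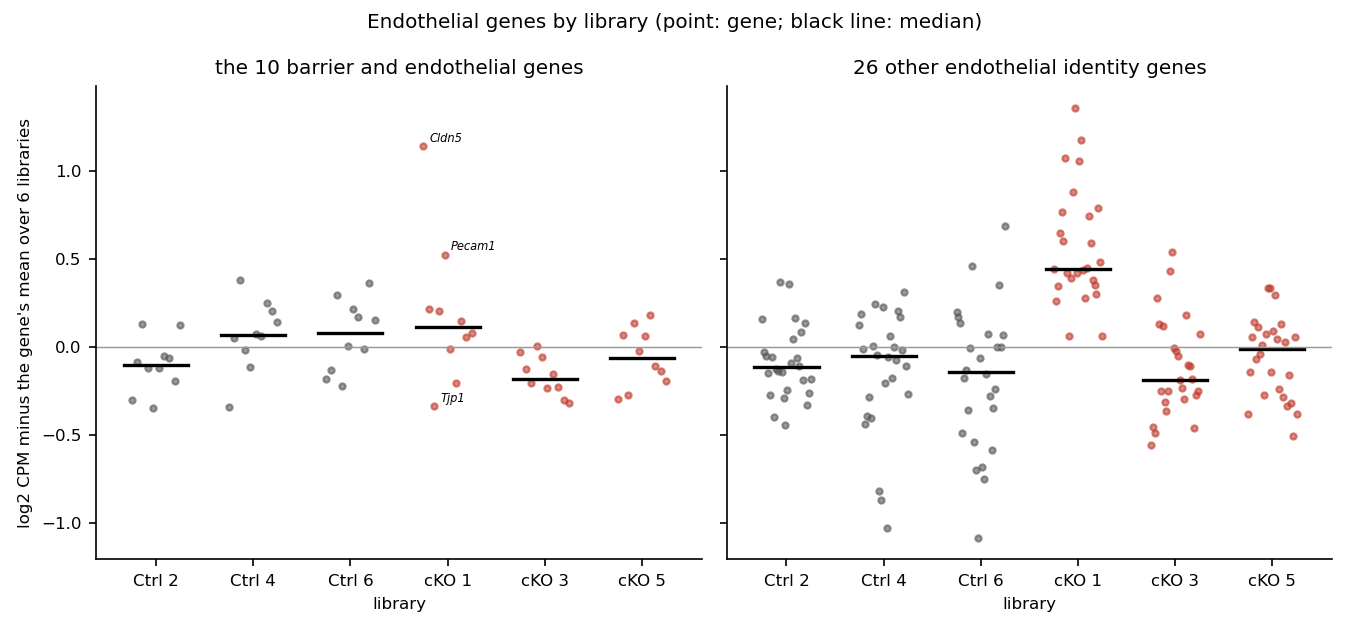
Log2 CPM minus the gene's mean over 6 libraries (vertical axis) by library, for the 10 genes and for 26 other endothelial genes; points are genes and black lines medians. The median of the 26 genes is 0.45 in Sox2 cKO 1 and between -0.18 and -0.0122 in the other libraries, and that of the 10 genes is 0.11 in Sox2 cKO 1 and -0.18 in Sox2 cKO 3.

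Mnx1, Gpr27, Spsb2, Npepl1 and Grn had the profiles most like the mean of Cldn5, Cdh5, Pecam1, Flt1 and Tek over the 6 libraries, among 13132 genes searched. Centred on its own mean, that profile was -0.17, -0.0229 and 0.0262 on the log2 scale in Ctrl 2, 4 and 6 and 0.40, -0.14 and -0.10 in Sox2 cKO 1, 3 and 5. Pearson's r with it was 0.99 for Mnx1, 0.98 for Gpr27, 0.97 for Spsb2, 0.97 for Npepl1 and 0.97 for Grn, given as a description over 6 libraries. The 5 genes behind the mean did not share 1 profile. Between pairs of them r ran from -0.41 for Cdh5 and Tek to 0.91 for Cldn5 and Pecam1. In Sox2 cKO 1 their centred levels were 1.15 for Cldn5, 0.53 for Pecam1, 0.20 for Cdh5, 0.0783 for Tek and 0.0589 for Flt1. Mnx1, a motor neuron transcription factor gene, was at 4.22, 4.49 and 4.59 CPM in Ctrl and at 5.58, 4.33 and 4.46 CPM in Sox2 cKO. Grn, which encodes progranulin, was at 34.9, 39.4 and 38.2 CPM in Ctrl and at 46.6, 36.2 and 38.0 CPM in Sox2 cKO. All 5 were highest in Sox2 cKO 1, as was the profile by which they were chosen, so that this follows from the choice.

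Other junction genes that passed the test were all lower in Sox2 cKO cord, as Tjp1 was. Of 16 tight and adherens junction genes other than the 10, 15 were tested, 5 were called lower and 0 higher (7 with an unadjusted p-value under 0.05; DESeq2 also called 5 lower and 0 higher), against 24.6% of all genes called and 12.4% called lower. Jup, which encodes plakoglobin of adherens junctions and desmosomes, was at 48.9, 54.6 and 54.0 CPM in Ctrl 2, 4 and 6 and at 42.0, 40.7 and 43.0 CPM in Sox2 cKO 1, 3 and 5 (log2 fold change -0.33, edgeR adjusted p = 0.0203). Cgnl1, which encodes the cingulin relative paracingulin, was at 172, 211 and 201 CPM against 146, 144 and 165 CPM (log2 fold change -0.36, adjusted p = 0.0281), and -0.0631 with the length correction. Jam2 (-0.32) and Afdn (-0.32), named after their values were seen, were called as well, and Afdn was at 0.0116 with the length correction. Ctnnb1, the beta-catenin gene and the most abundant of these junction genes per length, was at 375, 353 and 349 CPM in Ctrl and at 334, 347 and 330 CPM in Sox2 cKO (log2 fold change -0.09, edgeR adjusted p = 0.406). The median of the junction list was -0.0915, and it turned to 0.0116 with the length correction, with 2 calls, Jup among them. Limma on log2 FPKM called 1 of 14 lower with either pseudocount, with medians of 0.0049 and 0.0059. Of all genes it called 6.20% and 6.07% lower with pseudocounts 1 and 0.1. The summed level was 1114, 1150 and 1133 CPM in Ctrl 2, 4 and 6 and 979, 989 and 1003 CPM in Sox2 cKO 1, 3 and 5, lower in all 3. Most of these genes are also made by cells other than endothelium. Calls in edgeR dropped to 0 without Ctrl 4 or Sox2 cKO 1 (5 and 6 with an unadjusted p-value under 0.05; DESeq2 called 1 and 4) and to 1 without Ctrl 6 or Sox2 cKO 3, when Jup and Cgnl1 were not called, and 2 junction genes were called higher without Ctrl 2.

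Carriers and receptors of barrier endothelium other than Slc2a1, Mfsd2a and Abcb1a went both ways. All 24 were tested, with 2 called lower and 2 higher, against 24.6% of all genes called, and a median log2 fold change of 0.0143, or -0.0221 without Sox2 cKO 1. Itm2a, a membrane protein gene with high expression in brain endothelium, was at 64.6, 46.8 and 47.3 CPM in Ctrl 2, 4 and 6 and at 85.9, 73.3 and 73.7 CPM in Sox2 cKO 1, 3 and 5. It was higher in every Sox2 cKO library (log2 fold change 0.55, SE 0.13, edgeR adjusted p = 0.0169) and was the single call of this list with the length correction. Abcg2, a drug pump gene that works beside Abcb1a, was at 21.2, 21.7 and 18.7 CPM against 27.1, 24.1 and 24.7 CPM (log2 fold change 0.30, edgeR adjusted p = 0.049, DESeq2 0.0657). Spock2, a proteoglycan gene that is expressed well beyond vessels and was the most abundant of the list, was at 1331, 1567 and 1634 CPM against 1066, 1178 and 1296 CPM (log2 fold change -0.36, edgeR adjusted p = 0.0379, or -0.16 with the length correction). The fourth call, named after its value was seen, was the amino acid transporter gene Slc7a5, at -0.29. In edgeR 0 of the 24 were called without Ctrl 4, Ctrl 6 or Sox2 cKO 1 (6, 4 and 7 with an unadjusted p-value under 0.05; DESeq2 called 1 each time), 1, Itm2a, without Sox2 cKO 3, and 9 without Ctrl 2. Without Sox2 cKO 5 Abcg2 was not called.

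Ligands of Flt1 and Tek were higher in Sox2 cKO cord where they passed the test, and the receptors beside them mostly had negative fold changes. Of 14 such genes, all tested, 3 were called higher, Vegfa, Vegfb and Angpt4, and 1 lower, Nrp2, against 12.2% higher and 12.4% lower over all genes tested. Vegfa, which encodes the main VEGF, was at 72.7, 57.1 and 57.9 CPM in Ctrl 2, 4 and 6 and at 112, 92.6 and 73.4 CPM in Sox2 cKO 1, 3 and 5. Sox2 cKO 5 lay just above Ctrl 2, and the other 2 lay well above (log2 fold change 0.57, SE 0.15, edgeR adjusted p = 0.024, or 0.61 with the length correction, adjusted p = 0.0296). Vegfb, whose product binds Flt1 alone among the VEGF receptor kinases, was at 63.3, 52.9 and 58.9 CPM against 74.5, 74.7 and 69.7 CPM (log2 fold change 0.32, edgeR adjusted p = 0.0246). With the length correction the log2 fold change of Vegfb was 0.0703. Angpt4, a Tek ligand gene of low level, was at 0.538, 0.333 and 0.145 CPM against 1.14, 1.64 and 0.680 CPM (log2 fold change 1.75, SE 0.48, edgeR adjusted p = 0.0281). Nrp2, a VEGF co-receptor gene, was at 61.7, 68.6 and 69.9 CPM in Ctrl 2, 4 and 6 and at 45.8, 52.9 and 51.9 CPM in Sox2 cKO 1, 3 and 5. The groups were well apart (log2 fold change -0.41, SE 0.09, edgeR adjusted p = 0.0145), but with the length correction the value was -0.12 (adjusted p = 0.192). Leaving out Ctrl 4, Ctrl 6 or Sox2 cKO 1 left 0 calls in edgeR (4, 4 and 7 with an unadjusted p-value under 0.05). DESeq2 called 1 lower and 1 higher without Ctrl 4 or Ctrl 6, and 3 lower and 0 higher without Sox2 cKO 1, so that no ligand was called higher there. Leaving out Sox2 cKO 3 left Nrp2 in edgeR.

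Kdr, the main VEGF receptor gene of endothelium, was at 10.5, 10.2 and 10.8 CPM against 12.7, 6.34 and 7.18 CPM. Sox2 cKO 1 was the highest library for Kdr, and the other 2 lay below all Ctrl libraries (log2 fold change -0.27, edgeR adjusted p = 0.408). Tie1, the receptor gene related to Tek, was also highest in Sox2 cKO 1 and below all Ctrl libraries in the other 2, with 12.3, 14.3 and 14.2 CPM against 15.1, 9.14 and 11.4 CPM (log2 fold change -0.20, edgeR adjusted p = 0.402). With 1 library left out, log2 fold changes ran from -0.644 to -0.0781 for Kdr and from -0.421 to -0.0433 for Tie1. Ptprb, which encodes the phosphatase that acts on Tek, was at 37.1, 48.3 and 56.2 CPM against 42.5, 31.7 and 33.7 CPM, and like Flt1 its log2 fold change turned from -0.39 (edgeR adjusted p = 0.0871) to 0.0809 with the length correction. Log2 fold changes of genes not called were -0.38 for Flt4, -0.17 for Nrp1, 0.23 for Vegfc, 0.72 for Vegfd, 0.17 for Pgf, 0.20 for Angpt1 and 0.54 for Angpt2. Those of Nrp1 and Pgf turned to 0.0781 and -0.0297 with the length correction, and that of Angpt1 to -0.0154 without both Ctrl 2 and Sox2 cKO 1. With 1 library left out, values ran from 0.0103 to 0.4 for Vegfc and from 0.436 to 1.07 for Vegfd. They ran from 0.068 to 0.289 for Angpt1 and from 0.276 to 0.699 for Angpt2.

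The median over the 14 ligand and receptor genes was 0.18, or 0.0784 without Ctrl 4 and 0.11 without Sox2 cKO 1. It was 0.0795 with the length correction, where edgeR called 2, Vegfa and Angpt4. In limma on log2 FPKM, with 11 of the genes, it turned to -0.0608 and -0.0681 with pseudocounts 1 and 0.1. Summed over the list, levels were 331, 332 and 348 CPM in Ctrl 2, 4 and 6 and 383, 343 and 318 CPM in Sox2 cKO 1, 3 and 5.

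Wnt genes of the barrier that passed the test were all lower in Sox2 cKO cord. Of 20 ligand, receptor and target genes, all tested, 7 were called lower and 0 higher (8 with an unadjusted p-value under 0.05; DESeq2 called 7 lower and 0 higher), against 24.6% of all genes called and 12.4% called lower. The list median was -0.11 on the log2 scale. The ligand gene Wnt7a was at 8.79, 11.1 and 12.7 CPM in Ctrl 2, 4 and 6 and at 7.25, 7.30 and 3.85 CPM in Sox2 cKO 1, 3 and 5 (log2 fold change -0.82, SE 0.24, edgeR adjusted p = 0.0314). Its relative Wnt7b was at 25.2, 34.7 and 36.4 CPM against 22.8, 21.4 and 22.5 CPM (log2 fold change -0.53, adjusted p = 0.0205). For both ligands Ctrl 2 was the lowest Ctrl library and still above every Sox2 cKO library. Tspan12, which encodes a co-receptor for the ligand Norrin and was the most abundant of the list, was at 54.6, 65.8 and 70.2 CPM against 44.0, 48.9 and 52.4 CPM (log2 fold change -0.39, adjusted p = 0.0281). Tnfrsf19, listed here as a Wnt target gene, was at 52.1, 57.4 and 58.1 CPM against 40.4, 43.7 and 38.9 CPM (log2 fold change -0.45, SE 0.08, edgeR adjusted p = 0.0127). Which cells of the cord made its RNA was not tested. Lrp6, Nkd1 and Apcdd1, named after their values were seen, were the other Wnt calls, at -0.44, -0.41 and -0.32. With the length correction 5 of the 20 were called, all of them lower, against 13.0% of all genes called and 5.35% called lower. Lrp6 and Nkd1 were then not called, and the log2 fold change of Lrp6 was -0.0529. Limma on log2 FPKM called 2 of 19 with either pseudocount, both lower, with medians of -0.0078 and -0.0079. Over all genes limma called 24.3% and 23.8% with pseudocounts 1 and 0.1, and 6.20% and 6.07% lower. The target genes Axin2 and Lef1, also named after their values were seen, had log2 fold changes of 0.0831 and 0.31 and were not called. The summed level was 379, 427 and 429 CPM in Ctrl and 328, 331 and 335 CPM in Sox2 cKO. Calls in edgeR numbered 0 without Ctrl 4 or Sox2 cKO 1 (7 and 7 with an unadjusted p-value under 0.05; DESeq2 called 5 and 6), 1, Tnfrsf19, without Ctrl 6 or Sox2 cKO 3, and 4, without Wnt7a, when Sox2 cKO 5 was left out. The paper counts Wnt7a among genes enriched in astrocytes. It also reports SOX2 binding at Wnt7a, overlapped by a mark of active enhancers, and lower Wnt7a RNA by RT-qPCR in cord of younger Sox2 cKO mice. Binding was not tested here. Astrocyte genes summed to 9236, 9962 and 11572 CPM in Ctrl 2, 4 and 6 and to 6765, 6817 and 7114 CPM in Sox2 cKO 1, 3 and 5. Their part in the levels of Wnt genes was not tested.

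Genes of vesicle transport and of activated endothelium included 2 that were higher, Plvap and Lcn2, and 0 that were lower (3 with an unadjusted p-value under 0.05; DESeq2 called 2 higher and 0 lower), among 10 tested of 12, against 24.6% of all genes called and 12.2% called higher. Plvap encodes the diaphragm protein of leaky capillaries and is low in barrier endothelium. Plvap was at 6.10, 3.70 and 3.48 CPM in Ctrl 2, 4 and 6 and at 7.60, 7.33 and 8.16 CPM in Sox2 cKO 1, 3 and 5 (log2 fold change 0.80, SE 0.21, edgeR adjusted p = 0.0244). The 3 Sox2 cKO libraries were close together, above all Ctrl libraries. Lcn2, an inflammation gene named after its values were seen, was at 1.75, 0.748 and 1.01 CPM against 17.6, 10.5 and 1.51 CPM, with overlap between groups. Ackr1, the most abundant per length and a chemokine-binding receptor of venules, was at 30.1, 31.5 and 31.6 CPM against 47.0, 35.1 and 30.8 CPM (log2 fold change 0.27, edgeR adjusted p = 0.171, and -0.0165 with the length correction). The selectin genes Sele and Selp were not tested for lack of counts. The median was 0.24, or 0.1268 without Sox2 cKO 1. In edgeR 0 of the 10 were called without Ctrl 4, Ctrl 6 or Sox2 cKO 1 (3 each time with an unadjusted p-value under 0.05; DESeq2 called 0, 0 and 1), and without Sox2 cKO 3 or 5 Lcn2 was called and Plvap was not.

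Arterial and venous genes gave 1 call each way among 13 tested, against 24.6% of all genes called. Mgp, a matrix protein gene of arterial endothelium and also of other vessel and meningeal cells, was at 30.1, 29.7 and 10.2 CPM in Ctrl 2, 4 and 6 and at 55.6, 52.5 and 44.0 CPM in Sox2 cKO 1, 3 and 5 (log2 fold change 1.12, SE 0.30, edgeR adjusted p = 0.0273, DESeq2 0.0664). Prox1, a lymphatic transcription factor gene that is also expressed by neural cells, was at 45.9, 47.6 and 43.8 CPM against 34.0, 32.0 and 38.1 CPM (log2 fold change -0.40, edgeR adjusted p = 0.0163). With the length correction edgeR called 0 of the 13 (4 with an unadjusted p-value under 0.05; DESeq2, without that correction, called 1), Mgp being at 0.75 and Prox1 at -0.0632. The median was -0.0922, and it turned to 0.0214 with the length correction, to 0.12 without Ctrl 4 and to 0.0122 and 0.0152 in limma with pseudocounts 1 and 0.1. Without Ctrl 4, Sox2 cKO 1 or Sox2 cKO 3 edgeR called 0 (4, 4 and 3 with an unadjusted p-value under 0.05; DESeq2 called 1 each time), and without Ctrl 2 it called 3.

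**Figure D5:**
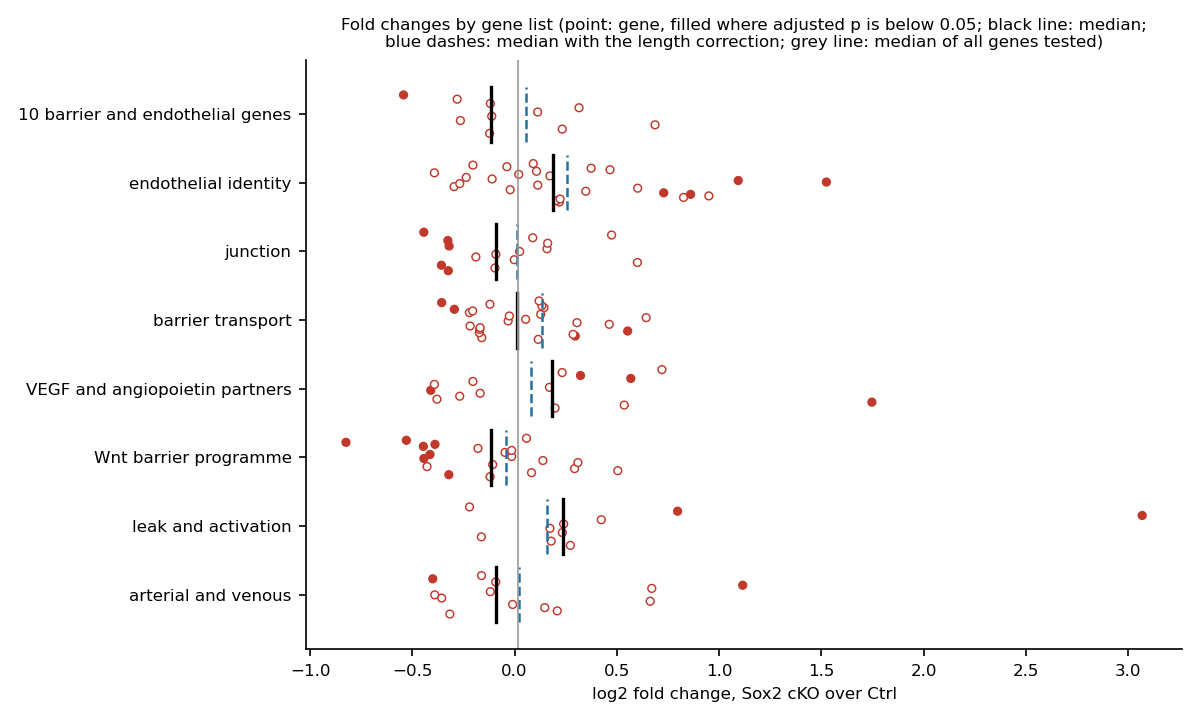
Log2 fold change of Sox2 cKO over Ctrl (horizontal axis) for the genes of 8 lists; points are genes, filled where called, black lines medians, and blue dashes medians with the length correction. The medians run from -0.12 for the 10 genes to 0.24 for leak and activation genes, and all 7 calls among Wnt genes lie below 0.

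Over the 7 lists together, 119 of 122 genes were tested, and edgeR called 28 of them, 16 lower and 12 higher, against 24.6% of all genes tested. Levels of 46 genes did not overlap between groups, against 44.7%, and the median log2 fold change was 0.0583, or -0.0371 without Sox2 cKO 1. With the length correction 15 were called, 7 lower and 8 higher, against 13.0%. Without Ctrl 4 or Sox2 cKO 1 edgeR called 0 (35 and 39 with an unadjusted p-value under 0.05, against 4758 of 16373 and 4945 of 16482 genes). DESeq2 called 14 of 122, 8 lower and 6 higher, without Ctrl 4 and 18, 14 lower and 4 higher, without Sox2 cKO 1. Of all genes DESeq2 called 1974 of 13828 and 2342 of 13370 there. EdgeR called 6 without Ctrl 6, against 6.54% of all genes, and 8 without Sox2 cKO 3, against 8.31%. Limma on log2 FPKM called 14 and 15 of 110 with pseudocounts 1 and 0.1, against 24.3% and 23.8% of all genes. The balance of directions was other than in edgeR, with 4 lower and 10 higher for pseudocount 1 and 4 lower and 11 higher for 0.1. Over all genes limma called 6.20% lower and 18.1% higher for pseudocount 1, and 6.07% lower and 17.7% higher for 0.1.

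Astrocytes and pericytes wrap the barrier, and genes of both were read as well. Of 13 astrocyte genes 6 were called lower and 0 higher (7 with an unadjusted p-value under 0.05; DESeq2 called 7 lower and 0 higher), against 24.6% of all genes called and 12.4% called lower. The list median was -0.22 on the log2 scale. Their summed level was 9236, 9962 and 11572 CPM in Ctrl 2, 4 and 6 and 6765, 6817 and 7114 CPM in Sox2 cKO 1, 3 and 5, and no gene was at 0 in all libraries. The most abundant per length, Gfap, had a log2 fold change of -1.11 (edgeR adjusted p = 0.0102), and Kcnj10 and Slc1a2 had -0.66 (adjusted p = 0.0125) and -0.62 (adjusted p = 0.0136). Without Sox2 cKO 1 edgeR called 0 of the 13 (6 with an unadjusted p-value under 0.05; DESeq2 called 6), and without Ctrl 4 it called Gfap alone. Slc1a2 was at -0.17 with the length correction, which left 3 calls in the list.

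Pericyte and smooth muscle genes gave 2 calls lower and 1 higher among 15 tested, against 24.6% of all genes called, with a median of 0.20, or 0.0799 without Sox2 cKO 1. Cspg4, a proteoglycan gene of pericytes and oligodendrocyte precursors, was at 17.4, 23.9 and 23.3 CPM in Ctrl 2, 4 and 6 and at 14.1, 12.6 and 13.8 CPM in Sox2 cKO 1, 3 and 5 (log2 fold change -0.67, edgeR adjusted p = 0.013). The receptor gene Notch3 was at 16.5, 25.9 and 31.7 CPM against 15.2, 16.1 and 15.3 CPM (log2 fold change -0.67, adjusted p = 0.0321). Kcnj8, a potassium channel gene of pericytes, was at 3.32, 2.54 and 3.14 CPM against 6.90, 4.13 and 5.44 CPM (log2 fold change 0.87, adjusted p = 0.0215). The most abundant per length, Vtn, had a log2 fold change of 0.38 (edgeR adjusted p = 0.166), and 7 of the 15 genes were highest in Sox2 cKO 1. The summed level was 344, 363 and 331 CPM in Ctrl and 432, 341 and 352 CPM in Sox2 cKO, high in Sox2 cKO 1 as for endothelial genes. The length correction left 1 call, Kcnj8, with Cspg4 at -0.32 and Notch3 at -0.31, and edgeR called 0 without Ctrl 4 or Sox2 cKO 1 (6 and 5 with an unadjusted p-value under 0.05; DESeq2 called 3 and 2) and Cspg4 alone without Ctrl 6. Without Sox2 cKO 3 or 5 Notch3 was not called. The part of astrocyte and mural cell content in the levels of the 10 genes was not tested.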

How the data were processed

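The authors aligned reads to mm10 with STAR 2.5 and made read counts per gene with HTSeq 0.6.1, as the submitters' processing notes state. The library kit was directional, and the strand setting of the counting is not stated. RNA integrity numbers were above 8.0 for all samples by the paper and above 6.8 by the labels. The authors deposited these counts and FPKM values made from them. Gene lengths were recovered from the pair of tables for 24442 genes, and names came from GENCODE M21 for 34490 of 35275 genes. Columns were grouped by even and odd number, as the study numbers the mice of a protein blot. The group means that the authors listed matched for 1999 of 1999 genes within 0.1%, and 0 matched with groups exchanged. There were 0 other columns of values per sample.

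Tests used R 4.3.3 and edgeR 4.0.16 (filterByExpr, TMM, quasi-likelihood test, no covariates, Benjamini-Hochberg adjustment over all genes, threshold 0.05). The biological coefficient of variation was 0.119. An exact permutation test of 3 against 3 cannot give p below 0.1. The 23 alternatives were upper quartile and RLE scaling, DESeq2 1.42.0, no filter, at least 10 counts in every library, limma 3.58.1 on log2 FPKM (pseudocount 1 or 0.1, minimum mean FPKM 0.5), corrections for length and for GC content (lowess, span 0.3), fits without each library in edgeR and DESeq2, and fits without both Ctrl 2 and Sox2 cKO 1. The GC correction and the fits without both libraries were added after seeing the data. The code of the fits was tested on simulated data, which bears on the code alone.

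Genes named by rule were the 10 members, the VEGF and angiopoietin list, from each of 17 lists the most abundant by FPKM and up to 3 called genes with the largest change (minimum mean count 50, groups apart), and the 5 genes most like 5 endothelial members. Not every gene that these rules give is named. Other genes were named outside the rules, among them those marked as named after their values were seen. The lists were endothelial identity, junction, barrier transport, VEGF and angiopoietin partners, Wnt barrier programme, leak and activation, arterial and venous, astrocyte, pericyte and smooth muscle, meningeal, red blood cell, platelet, microglia, choroid and ependymal, neuron, oligodendrocyte and spinal position genes. Members and lists were chosen with earlier results of these data known.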

Additional observations from a re-analysis of the deposited data

How the results depend on the processing

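Over single genes and counts by list, 1628 values under an alternative kept direction and side of the threshold or moved by less than their spread, 186 lost the threshold, 41 gained it, 207 moved further and 22 reversed. Among genes named in the text, log2 fold changes that turned sign with the length correction included those of Abcb1a (0.0601), Flt1 (0.0486), Afdn (0.0116), Ackr1 (-0.0165), Hoxb8 (-0.00754), Nrp1 (0.0781), Pgf (-0.0297) and Ptprb (0.0809). Genes that are not named turned as well. Without both Ctrl 2 and Sox2 cKO 1, fits chosen after seeing the data, Angpt1 turned to -0.0154 in edgeR and -0.0269 in DESeq2. Limma on log2 FPKM gave 0.00781 (pseudocount 1) and 0.0079 (pseudocount 0.1) for Ctnnb1, and 0.197 and 0.202 for Hbb-bs, which was 0.0213 with upper quartile scaling. With 1 library left out, log2 fold changes ran from -0.291 to 0.529 for Hbb-bs, from -0.00758 to 0.0798 for Hoxb8 and from -0.0135 to 0.65 for Igf2. The cause was not tested.

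Genes called numbered 3970, and 2093 with the length correction. Leaving out 1 library gave 8 to 6119 genes, 0 to 2 members (1 with all libraries) and 0 to 39 genes of the 7 endothelial and barrier lists (28 with all libraries). Members called were 2 with no filter, against 4199 of 24442 genes. Without both Ctrl 2 and Sox2 cKO 1, members called were 3 in edgeR and 3 in DESeq2, against 5620 of 16332 and 4566 of 14618 genes. Genes of the 7 lists called were 14 and 15 in limma with pseudocounts 1 and 0.1 (24.3% and 23.8% of all genes), 15 with the length correction (13.0%) and 44 in edgeR without both libraries (34.4%). Without a library, the log2 fold change of Sox2 ran from -3.08 to -2.56, of Tjp1 from -0.623 to -0.488, of Cldn5 from 0.109 to 0.945, of Flt1 from -0.424 to -0.139 and of Tek from -0.408 to -0.195.

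The balance of directions moved with the method: 50.6% of calls were lower in edgeR, 41.7% with upper quartile and 52.6% with RLE scaling, and 25.5% in limma with either pseudocount, which also changes the test and the filter and where the median log2 fold change of all genes was 0.0892 (pseudocount 1) and 0.113 (pseudocount 0.1) against 0.0179. No paired analysis was possible because the columns carry no replicate numbers. With 3 mice a group, a difference as small as that of Ocln or Slc2a1 was not detectable beyond the spread between mice. Which replicate of the sample labels each library came from is not known, and RNA quality and sex are not given by library.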

Other observations

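Over all genes edgeR called 24.6%, DESeq2 28.1%, and edgeR without Ctrl 2 36.9%, beside which the counts below stand. Meningeal and red blood cell genes differed by library more than by group. The 11 meningeal and nerve sheath genes summed to 594, 560 and 215 CPM in Ctrl 2, 4 and 6 and to 644, 493 and 483 CPM in Sox2 cKO 1, 3 and 5, low in Ctrl 6. Their most abundant gene, Igf2, was at 279, 254 and 85.8 CPM against 336, 234 and 231 CPM. EdgeR called 0 of them (1 with an unadjusted p-value under 0.05, and DESeq2 0), with a median log2 fold change of 0.52, or 0.13 without Ctrl 6, where 2 were called lower, and 1 was called higher without Ctrl 2. The 6 red blood cell genes summed to 58.0, 76.1 and 167 CPM in Ctrl and to 82.9, 78.0 and 99.4 CPM in Sox2 cKO, and all 6 were highest in Ctrl 6. EdgeR called 0 of them (0 with an unadjusted p-value under 0.05, and DESeq2 0), with a median of -0.35, though it called 2 lower without Ctrl 2 and 1 higher, Hbb-bs, without Ctrl 6. The 6 platelet genes, of which 3 were tested and Gp6 was at 0 counts in all libraries, summed to 6.01, 4.82 and 3.43 CPM in Ctrl and to 8.52, 6.62 and 5.55 CPM in Sox2 cKO. Pf4, the most abundant platelet gene, was at 1.30, 0.416 and 0.386 CPM in Ctrl and at 2.94, 2.01 and 1.40 CPM in Sox2 cKO (log2 fold change 1.58, edgeR adjusted p = 0.0335), the single call, with a list median of 0.39. The log2 fold change of Pf4 was 2.37 without Ctrl 2, and Pf4 was not called without Ctrl 4, Ctrl 6, Sox2 cKO 1 or Sox2 cKO 3 or with the length correction.

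Of 7 microglia genes edgeR called 0 (4 with an unadjusted p-value under 0.05; DESeq2 called 3 lower), with a median of -0.16, and 3 lower without Ctrl 2. Of 7 choroid plexus and ependymal genes 1 was called, the ciliated cell gene Foxj1, at 38.4, 42.9 and 46.2 CPM in Ctrl and 32.6, 33.2 and 34.5 CPM in Sox2 cKO (log2 fold change -0.35, edgeR adjusted p = 0.0246), with a list median of 0.0661. EdgeR did not call Foxj1 without Ctrl 4, Ctrl 6, Sox2 cKO 1, Sox2 cKO 3 or Sox2 cKO 5, and without Sox2 cKO 3 another gene of this list was called lower. Of 8 neuron genes edgeR called 0 (1 with an unadjusted p-value under 0.05; DESeq2 called 1 higher), with a median of -0.0325 and 1 higher without Ctrl 2; Snap25, the most abundant, was at 0.35 (adjusted p = 0.0619). Of 6 oligodendrocyte genes edgeR called 0 (1 with an unadjusted p-value under 0.05; DESeq2 called 2 lower), with a median of -0.11 and 1 higher without Ctrl 2, and Mbp was the most abundant. Of 10 position genes 7 were tested and 0 called by edgeR (1 with an unadjusted p-value under 0.05, and DESeq2 0), with a median of 0.0421. Hoxb8, a gene of the spinal cord, was the most abundant of these, and the forebrain genes Emx1 and Dlx5 were at 0.0897 CPM or less in every library. After the correction for length edgeR called 1 microglia gene lower, 1 neuron gene higher, 1 oligodendrocyte gene lower and 1 higher, and 1 position gene lower. Over all genes 13.0% were called after that correction, 5.35% lower and 7.62% higher.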
